A study of Saccharomyces cerevisiae with 24 samples.

Results

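Expansion segments 27 and 39 of the yeast 25S rRNA were taken as positions 1954 to 2096 and 3155 to 3290, counted from 1 at the 5′ end of the mature molecule. They hold 279 positions, 143 in segment 27 and 136 in segment 39, of 3396 in 25S rRNA and 5475 in the rRNA reference. The limits were fixed by coordinate and not by any measured value, and 0 of 74 listed 25S modified sites lie inside them. The nearest listed site is 33 nt from a segment. RDN25-1 on chromosome XII is a 25S rRNA gene in the R64 gene table, an RNA gene with no coding sequence. Values were given per rRNA and not per gene copy.

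Nanopore direct RNA sequencing, in which an RNA strand is read from its 3′ end as it passes through a protein pore, was applied to rRNA of *Saccharomyces cerevisiae* BY4741 in 24 libraries of 12 groups. Total RNA of untreated wild-type cells (WT) and of snR3KO, snR34KO and snR36KO cells, in which the named small nucleolar RNA gene was replaced by a kanMX4 cassette, gave 2 libraries a strain. Wild-type cells without stress gave fractions 1, 2, 3 and 4 of a sucrose gradient (F1 to F4), 2 libraries each. Wild-type cells left untreated or given 1 mM hydrogen peroxide for 30 min gave total RNA (input) and pooled fractions 3-4, 2 libraries for each of these 4 groups. Fraction RNA came from extracts made with cycloheximide, and strain and input RNA from a commercial yeast kit. Base-call error tables covered 20 libraries, with replicate 1 only for the strains, and current tables covered the 8 strain libraries. The median coverage of 25S positions ran from 64 to 13538 reads a library. For the strains, no label says that replicates were separate cultures, so p-values there measure only the spread between these samples.

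Expansion segments are stretches that eukaryotic rRNA has in addition to the core shared with bacteria, and they lie mostly on the surface of the ribosome. Segment 27 of the large subunit is a mobile helix that can swing towards the exit of the peptide tunnel, where in yeast it is contacted by Arx1, an export and maturation factor, and by the N-terminal acetyltransferase NatA. Segment 39 is an extension near the 3′ end of the molecule. Modified nucleotides of rRNA are concentrated in the functional core.

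The sequences of both segments are shown because the positions of frequent errors are read against them. They were read from the reference base column of the deposited tables. Capitals mark the positions at which the median over 20 libraries of the mismatch, insertion or deletion frequency was at least 10%.
ES27: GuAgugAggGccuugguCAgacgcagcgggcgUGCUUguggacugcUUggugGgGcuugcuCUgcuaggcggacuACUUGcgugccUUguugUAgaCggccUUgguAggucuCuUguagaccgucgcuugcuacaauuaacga
ES39: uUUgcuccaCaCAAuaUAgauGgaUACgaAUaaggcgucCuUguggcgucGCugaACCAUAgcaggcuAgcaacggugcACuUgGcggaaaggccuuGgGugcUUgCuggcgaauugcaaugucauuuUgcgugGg
Segment 27 has 32 such positions and segment 39 has 36. In segment 27, 9 passed for mismatch, 16 for insertion and 12 for deletion, and in segment 39 the numbers were 7, 8 and 27. As shares these are 6.29%, 11.2% and 8.39% in segment 27 and 5.15%, 5.88% and 19.9% in segment 39. The comparison was 1381 positions outside the segments, at least 6 nt from a listed site and with at least 50 reads in every library. Of those, 5.14% passed for mismatch, 6.88% for insertion and 11.9% for deletion.

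Segment 27 is rich in G and poor in A. G makes up 35.0% of it and A 14.0%, and its GC content is 57.3%, against 52.2% in segment 39 and 47.3% in the rest of 25S. Folded alone with RNAfold, segment 27 had a predicted energy of -64.5 kcal/mol with 100 positions paired, and segment 39 had -41.8 kcal/mol with 84 paired. These are predictions for the isolated sequences and not structures measured here.

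Coverage of segment 27 lay below, and that of segment 39 mostly above, the mean over 25S positions 2400 to 2600, a window between them that was used to scale each library. Scaled coverage of segment 27 had a median of 0.757 over 20 libraries and ranged from 0.459 to 0.888. That of segment 39 had a median of 1.28 and ranged from 0.913 to 5.32. Segment 39, nearer the 3′ end, had the higher coverage in each of the 20 libraries, with a ratio of segment 39 to segment 27 between 1.03 and 11.6.

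The 4 strain libraries were nearly alike. WT had 0.832 for segment 27 and 1.26 for segment 39, and the 3 knockouts lay between 0.817 and 0.844 and between 1.25 and 1.28.

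Libraries numbered replicate 1 and replicate 2 differed more than the groups did. Over the 12 libraries numbered 1, segment 39 lay between 0.913 and 1.34, and over the 8 libraries numbered 2 between 1.51 and 5.32, with no overlap. Segment 27 lay between 0.723 and 0.888 in the former and between 0.459 and 0.728 in the latter, which overlap slightly. Which preparation or run separates the numbers is not given in the labels, so its part in these values was not tested.

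**Figure D1:**
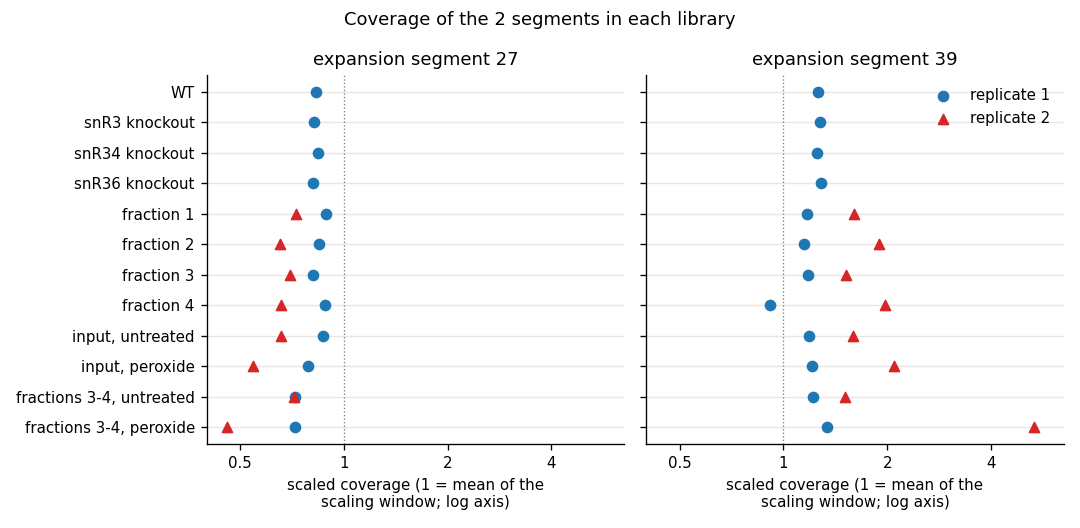
Scaled coverage of expansion segments 27 (left) and 39 (right) in each library on a log axis, by group, with replicate 1 as circles and replicate 2 as triangles. For segment 39 every triangle lies right of every circle, and replicate 2 of peroxide-treated fractions 3-4 stands alone at 5.32.

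Among the gradient fractions, the replicates spread wider than the fraction means. For segment 27, F1 had 0.888 in replicate 1 and 0.728 in replicate 2, F2 had 0.845 and 0.652, F3 had 0.815 and 0.699, and F4 had 0.885 and 0.658. For segment 39, F1 had 1.17 and 1.60, F2 had 1.15 and 1.90, F3 had 1.18 and 1.52, and F4 had 0.913 and 1.97. All 4 fractions overlap for both segments, and F4 replicate 1 holds the only value of segment 39 below 1. With edgeR's quasi-likelihood test on coverage counts, 0 of the 279 positions were called among F1 to F4, beside 0% of all 2023 positions tested. The lowest adjusted p of a member under edgeR was 1.00, and positions 2068, 2070 and 2071 had the lowest unadjusted p under edgeR, 0.952 to 0.959. At an unadjusted p below 0.05 the count was also 0, as it was with DESeq2 and with limma.

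The peroxide experiment gave no called position in either segment. Segment 27 stood at 0.868 and 0.657 in untreated input and at 0.787 and 0.545 in treated input. In fractions 3-4 it stood at 0.723 and 0.719 untreated and at 0.724 and 0.459 treated. Treated and untreated libraries overlap in the input, and in fractions 3-4 replicate 2 alone is low. Segment 39 stood at 1.19 and 1.59 in untreated and 1.21 and 2.09 in treated input, and at 1.22 and 1.51 in untreated and 1.34 and 5.32 in treated fractions 3-4. Each treated library was thus higher than the untreated library of the same number, but the groups overlap. Libraries of the same number share only that number in the labels, and what separates the numbers was not tested.

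The fitted log2 difference for peroxide in fractions 3-4 had a median of 1.30 over segment 39 and -0.28 over segment 27. Under edgeR the lowest adjusted p in segment 39 was 0.568, at positions 3169, 3175 and 3176 (unadjusted p = 0.157). In input the median difference was 0.25 over segment 39 and -0.20 over segment 27, and the lowest adjusted p under edgeR was 0.914, with positions 1966, 1977 and 2023 lowest. For untreated fractions 3-4 against untreated input the medians were -0.02 and -0.08, with an edgeR adjusted p of 1.00 at positions 1965, 1967 and 1990.

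Of the 279 positions, 0 were called in each of these 3 comparisons. Over all 2495 positions tested, the share called was 0% for peroxide in input, 0.0401% for peroxide in fractions 3-4 and 0% for fractions 3-4 against input. No member reached an unadjusted p below 0.05 with edgeR, DESeq2 or limma. Replicate 2 of treated fractions 3-4 stood apart for both segments. Neighbouring positions share reads, so coverage calls come in blocks and a count of them is not a count of separate observations. Without replicate 1 of that group, edgeR called 136 members, of 762 called among all 2495 positions tested, and the lone replicate 2 was then assumed to vary like the other groups.

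Coverage changed little from the 3′ to the 5′ end of a segment. Segment 27 lost a median of 2.93% of its coverage, with a range from -1.79%, a gain, to 8.89%, and segment 39 lost 0.414%, with a range from -5.36% to 14.6%. Per 100 nt, the loss was a median of 2.07% in segment 27 and 0.307% in segment 39, and it was lower than in the stretch between them in 20 of 20 libraries. The largest steps within segment 27 were between positions 2082 and 2083, 2081 and 2082, and 1956 and 1957, with median losses of 0.172%, 0.141% and 0.067%. In segment 39 they were between 3198 and 3199, 3181 and 3182, and 3195 and 3196, with 0.039%, 0.029% and 0.025%. None of the 6 was seen as a loss in every library. From segment 39 to segment 27 the loss was between 5.09% in F4 replicate 1 and 89.6% in replicate 2 of treated fractions 3-4.

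Mismatches and insertions were more frequent in both segments than in the rest of 25S in most libraries, and deletions set the segments apart. The rest of 25S was taken as positions outside the segments, at least 6 nt from a listed site and with at least 50 reads in the library. Mismatch had a median over libraries of 3.49% in segment 27, 3.31% in segment 39 and 3.00% in the rest. It was above the rest in 20 of 20 libraries in segment 27 and in 18 of 20 in segment 39. Insertion stood at 5.71%, 4.72% and 4.59%, above the rest in 20 and in 17 libraries.

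Deletion was 4.36% in segment 27, below the rest in 16 of 20 libraries, and 5.76% in segment 39, above the rest in 20 of 20, with 4.59% in the rest. With the rest limited to the 1381 positions that reach 50 reads in every library, an alternative chosen after seeing the data, segment 27 was below in 20 of 20 libraries for deletion and segment 39 above in 20 of 20. Under that choice mismatch in segment 39 was above in 17 libraries. The direction for deletion in segment 27 rests on the mean over positions, since with the median over positions it was 0.189 points above the rest. With positions near listed sites included in the rest, the direction turned for mismatch, to -0.854 points in segment 27 and -0.954 in segment 39, and for insertion in segment 39, to -0.858. The base quality score had a median of 17.4 in segment 27, 17.3 in segment 39 and 18.5 in the rest, and it was below the rest in 20 of 20 libraries for both segments.

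The segments also differed from the rest of 25S when the same base was compared. At A, mismatch exceeded the same base in the rest by a median of 1.59 percentage points in segment 27 and 0.884 in segment 39, in 20 of 20 libraries for both. At A, deletion was 7.53% in segment 39, which is 3.23 points above the rest, but 0.317 points below it in segment 27. At U, segment 39 had 8.76% deletion, 3.05 points above the rest, and segment 27 had 7.92% insertion, 2.03 points above. G in segment 39 had 2.27% deletion, 1.24 points below the rest in 20 of 20 libraries. C in segment 27 had 3.32%, which was 2.04 points below, also in 20 of 20. With the listed modified sites counted in the rest, mismatch at A was 0.216 points above it in segment 27, in 18 of 20 libraries, and turned to -0.488 points in segment 39, below it in 14 of 20. Insertion at U in segment 27 was then 0.633 points above, in 17 of 20, and the other differences of this comparison kept their direction, with deletion at U in segment 39 at 1.73 and at A in segment 27 at -0.919. Positions of 1 segment are neighbours and share reads, so these counts describe the libraries and carry no test.

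**Figure D2:**
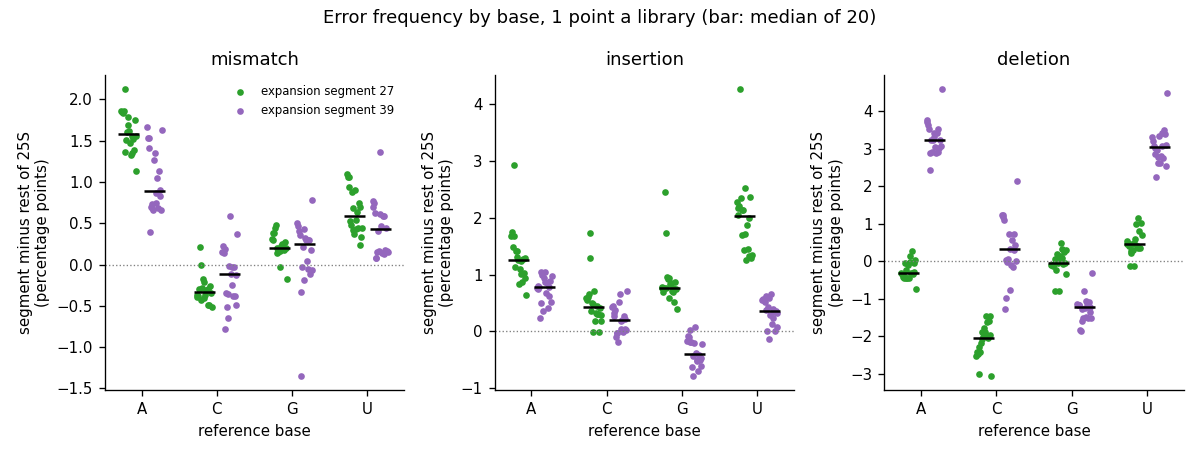
Mean mismatch, insertion and deletion frequency at each reference base in segments 27 and 39 minus the mean at the same base in the rest of 25S, in percentage points, with 1 point a library and a bar at the median of 20. Deletion at A and U is above the rest in segment 39, with medians of 3.23 and 3.05, and deletion at C is below it in segment 27, with a median of -2.04.

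Positions predicted unpaired had more errors than paired ones. In segment 27 the median mismatch was 3.86% at 43 unpaired and 3.34% at 100 paired positions, and deletion was 5.49% and 3.82%. In segment 39 mismatch was 3.81% at 52 unpaired and 3.05% at 84 paired positions, and deletion was 6.16% and 5.49%. Both were higher at unpaired positions in 20 of 20 libraries, and insertion was in 19. Paired and unpaired positions were not matched by base or by run length, and the part of these in the difference was not tested.

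Mismatches were highest at a few positions and moderate there. In segment 27 position 2060, an A, had the highest median, 16.0%, with a range from 8.43% in F1 replicate 2 to 19.5% in F1 replicate 1. Those libraries have the lowest depth, with 83 reads at this position in F1 replicate 2. The next 5 positions of segment 27, which are 1987, 2055, 1956, 1988 and 2006, had medians between 11.0% and 11.7%. No position of either segment had a median mismatch of 20% or more, and 57 of 279 (20.4%) had at least 5%. Of the 1381 positions of the rest with 50 reads in every library, 17.5% did.

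In segment 39 position 3210, an A, was highest, with a median of 18.7%. It stood at 27.6% in WT, at 27.3% in snR3KO, 27.7% in snR34KO and 27.5% in snR36KO. The other 16 libraries lay between 12.4% in F1 replicate 1 and 21.7% in replicate 2 of treated fractions 3-4, so the 4 strain libraries lie above all others. The Wilson 95% interval of WT, for counting error only, was 26.8% to 28.4% and that of F1 replicate 1 was 7.53% to 19.7%. The strain libraries and the others belong to different experiments and, for the fractions, different RNA preparations, which cannot be told apart here. Untreated wild-type input, also total RNA by kit, gave 16.0% and 21.3%.

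Position 3156, a U, showed 19.8% to 21.1% in the strain libraries and 11.7% to 19.5% in the others. Its strain values were also the highest, by a small margin over F4 replicate 1 (19.5%). Positions 3176, 3252, 3181 and 3289 had medians of 15.4%, 13.9%, 11.2% and 10.7%. At 3176 F4 replicate 1 reached 25.4% and at 3252 replicate 2 of treated fractions 3-4 reached 24.3%, each far from its group's other library.

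**Figure D3:**
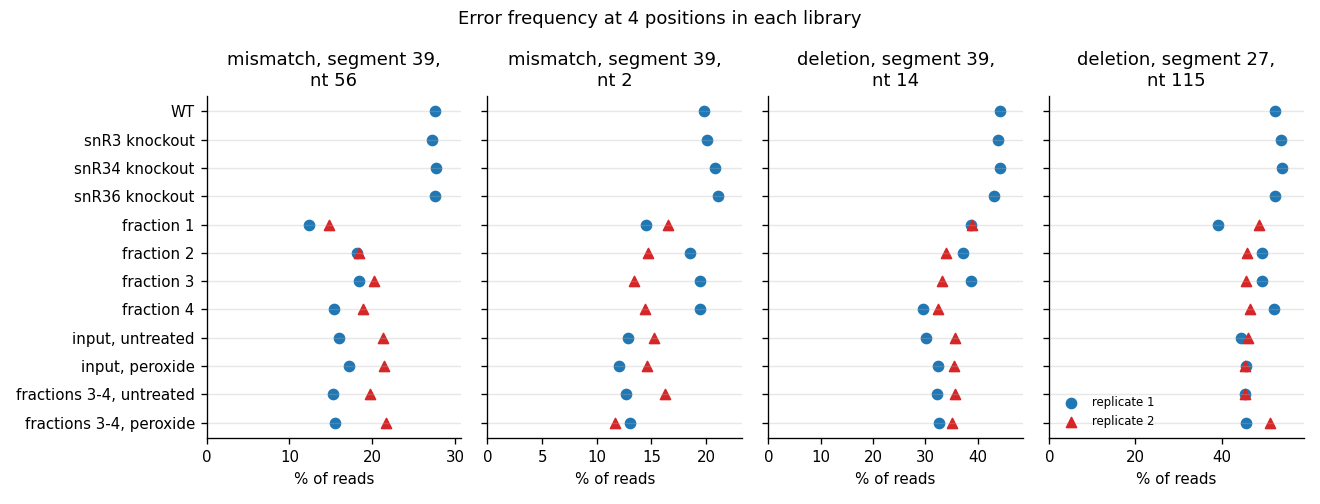
Mismatch frequency at segment 39 nt 56 (position 3210) and nt 2 (position 3156), and deletion frequency at segment 39 nt 14 (position 3168) and segment 27 nt 115 (position 2068), as percent of reads in each library, with replicate 1 as circles and replicate 2 as triangles. The 4 strain libraries are the highest of 20 at all 4 positions, by a narrow margin at position 2068. These positions were picked from those named in the text. At 3211 (insertion) and 3237 (deletion) the strain libraries are instead the lowest. At 1987, 1988 and 3176 (mismatch) and 3214 (deletion) they lie within the range of the other libraries. The share of positions at which the strain libraries stand apart was not counted, so this is not read as a trait of the segments.

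Insertions peaked at neighbouring bases. Position 2032, a U, had a median of 30.4% in segment 27 (21.2% to 34.1%), and position 2033, a G, 19.6%. Positions 1972 and 1971 followed with 16.8% and 16.3%. In segment 39 position 3185, a U, had 33.3% (28.9% to 34.8%) and position 3184, an A, 29.3%, in the letters gaAUaag. Positions 3259 and 3211 had 19.7% and 18.0%. At 3211 the strain libraries were the lowest, with 15.0% to 15.4% against 16.0% to 22.2% in the others. Insertion was at least 10% in every library at 12 of the 279 positions.

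Deletions reached the highest frequencies of any error. Position 2068, a U that follows a U, had a median of 46.4% in segment 27, with 52.4% in WT and a range from 39.1% in F1 replicate 1 to 54.0% in snR34KO. The next highest after the 4 strain libraries was F4 replicate 1, at 52.3%. Positions 1990, 2008 and 2032 followed, with 36.4%, 26.5% and 24.3%. Position 2032 was thus high for both insertion and deletion.

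In segment 39, position 3214, a U, had a median of 43.5%, position 3237, a U, 42.8%, and position 3215, an A, 40.3%. Position 3168, an A, had 35.6%, with 43.2% to 44.3% in the strain libraries against 29.7% to 38.9% in the others, again without overlap. Of 136 positions, 27 (19.9%) had a median of at least 10%, against 12 of 143 (8.39%) in segment 27 and 11.9% of those 1381 positions of the rest.

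**Figure D4:**
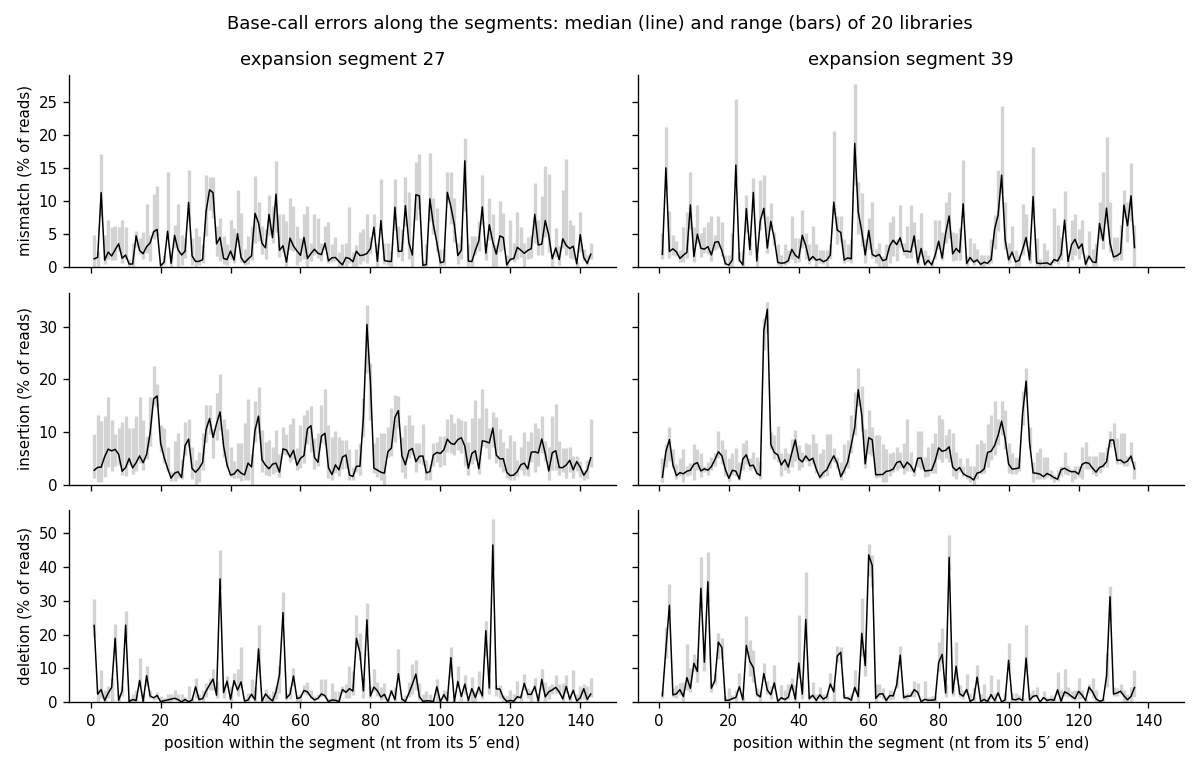
Median (line) and range (bars) over 20 libraries of mismatch, insertion and deletion, in percent of reads, along segments 27 (left) and 39 (right), by position from the 5′ end of the segment. Deletion peaks are tall and narrow, up to 46.4% in segment 27, and mismatch medians stay below 20%.

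Deletions in runs of the same base were placed mostly at the last base. Whether that belongs to the base or to the alignment, whose program is not named, was not tested. In the GGGG run at positions 2005 to 2008 the median deletion rose from 0.391% at the first to 26.5% at the last base. In the UUUU run at 3280 to 3283 it was 0.317% at the first and 31.2% at the last base, and in the GGGG run at 3288 to 3291, whose last base lies outside the segment, 0.722% and 31.5%. Over both segments, bases in runs of 3 or more had a median deletion of 7.75% and single bases 4.42%, higher in 20 of 20 libraries. In the rest of 25S the values were 7.98% and 4.07%.

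At the segment ends, position 1954, a G that closes a run of 3, had a median deletion of 22.7%, and position 2096, an A, 2.44%. Position 3155, a U, had 1.92% and position 3290, a G, 4.35%. The score of base quality was lowest at positions 2065, 2066 and 1988 in segment 27 (medians 7.45, 7.98 and 8.96) and at 3214, 3163 and 3213 in segment 39 (7.32, 8.02 and 8.73). Of these 6, only 1988 (mismatch) and 3214 (deletion) are also among the positions named above.

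The error profile recurred across libraries. Pearson's r with WT over the 143 positions of segment 27 had a median of 0.984 for deletion and 0.940 for mismatch and for insertion, and over the 136 positions of segment 39 of 0.975, 0.936 and 0.954. The lowest values, 0.664 for insertion in segment 27 and 0.720 for mismatch in segment 39, were in F1 replicate 1. These coefficients are across positions that share a sequence and a reader, so they describe a repeated pattern and carry no p.

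In the knockouts, neither segment held a position that differed from WT by 5 percentage points or more in any error. With 1 library a strain there is no replicate check. For snR3KO, 0 of 279 positions passed for mismatch, insertion and deletion, beside 0.275%, 0.238% and 0.238% of all rRNA positions. For snR34KO the count was 0 for each, beside 0.147%, 0.0916% and 0.257%. For snR36KO it was 0 for each, beside 0.147%, 0.147% and 0.147%. With shares this low over all positions, a count of 0 among 279 is near the background. Over all rRNA positions the largest mismatch difference from WT was 52.2 points in snR3KO, 64.2 in snR34KO and 17.2 in snR36KO, all outside the segments.

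The largest single differences were small. Deletion at position 3196 was 25.9% in snR36KO (Wilson 95% interval 25.3% to 26.5%) and 29.2% in WT (28.5% to 30.0%). Mismatch at 1987 was 11.2% in snR3KO and 9.91% in WT, and mismatch at 2080 was 11.1% in snR34KO and 12.7% in WT. The median absolute difference over members lay between 0.122 and 0.219 percentage points in the 9 comparisons, and over all rRNA positions between 0.148 and 0.255.

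Among F1 to F4, no position of either segment passed the error tests. The tests were quasi-binomial models whose dispersion was moderated with limma, adjusted over 3307 rRNA positions. For mismatch, insertion and deletion 0 of 279 positions were called, beside 0%, 0% and 0% of all positions. Unadjusted p below 0.05 was reached by 43, 53 and 38 members, and by 596, 593 and 465 of all positions. With limma on empirical logits it was reached by 9, 7 and 25 members, with 0 called. Those empirical-logit counts stand without a share over all positions and are not read as a result about the members. The lowest limma-moderated adjusted p was 0.271 for mismatch (positions 2065, 2093 and 2067), 0.221 for insertion (2040, 3228 and 1967) and 0.339 for deletion (3156, 2094 and 3184).

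At position 1967 F1 had an insertion frequency of 16.7% and 13.4%, F2 5.92% and 5.21%, F3 5.90% and 6.01%, and F4 5.26% and 4.03%. Both F1 libraries lie above the other 6, and they are the libraries of lowest depth. At position 2065 F1 had a mismatch frequency of 11.5% and 7.23%, F2 12.0% and 8.24%, F3 12.8% and 8.92%, and F4 9.91% and 6.54%, with replicate 1 higher in each fraction. The number of members called among F1 to F4 depended on 1 library. Without F2 replicate 2, the same tests called 35 members for mismatch, 62 for insertion and 33 for deletion, of 540, 751 and 635 called among all 3307 positions tested. F2 is then replicate 1 alone, which was assumed to vary like the other groups.

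Peroxide left the error frequencies of both segments without a called position. In input, 0 of 279 positions were called for mismatch, insertion and deletion, beside 0%, 0% and 0% of 4535 positions tested. In fractions 3-4, 0 were called for each, beside 0%, 0% and 0%, and for untreated fractions 3-4 against input, 0 for each, beside 0%, 0% and 0%. Members with an unadjusted p below 0.05 numbered 4, 4 and 4 in input, 5, 7 and 1 in fractions 3-4 and 1, 4 and 0 for fractions against input. With limma on empirical logits they numbered 1, 1 and 2, then 8, 6 and 4, then 3, 1 and 1, and 0 were called. No share over all positions stands beside these unadjusted counts, so they are not read as a result about the members.

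The lowest p among members in the peroxide fits was at position 1990, for insertion in fractions 3-4, with an adjusted p of 1.00 in the limma-moderated model. Insertion there was 14.7% and 15.4% untreated and 10.4% and 12.6% treated, with no overlap, and in input it was 11.4% and 12.7% untreated and 12.0% and 14.1% treated, with overlap. Mismatch at position 2035 was 0.785% and 0.635% in untreated and 1.46% and 1.07% in treated input, with an adjusted p of 1.00 in the limma-moderated model. It was 1.30% and 1.06% in untreated and 0.830% and 0.463% in treated fractions 3-4. Position 2035 was named for its low p in the input fit, so its separation in input follows from that choice. Its frequencies were at most 1.46%, and no read counts or intervals stand beside them. Treated libraries were higher in input and lower in fractions there, and the difference between these was not tested. Without replicate 1 of treated fractions 3-4, 8 members were called for mismatch and 2 for deletion with peroxide in fractions 3-4, of 29 and 10 called among all 4535 positions tested. The lone replicate 2 was then assumed to vary like the other groups.

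Current levels were available for 271 5-mers that lie wholly within the segments, 139 in segment 27 and 132 in segment 39, of 5158 measured in all 8 strain libraries. The number of reads behind a level was not used, so its depth is unknown. The mean of the 8 libraries ran from 72.4 to 130.0 pA in segment 27 and from 69.1 to 134.9 pA in segment 39. The 5-mer AGACG at 1972 had the highest mean of segment 27, 130.0 pA, followed by AGACG at 2047 and AGACC at 2071. GCCUU was lowest in segment 27, at 2037, 2052 and 1963, with means of 72.4, 72.5 and 73.6 pA. It was also among the lowest in segment 39, at 3247 with 71.8 pA, after CUCCA at 3159 (69.1 pA) and beside UCCAC at 3160. AGAUG at 3172 was highest in segment 39, 134.9 pA, followed by GGAUA at 3176 and UGGAU at 3175.

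Levels lay closer between strains in replicate 1 than between the replicates of a strain. The deposited names of the 4 strain current tables carry the word flongle, a small type of nanopore flow cell, for replicate 2 and not for replicate 1. Replicate number and that difference in the names cannot be told apart, and the word was not used to group libraries. The mean absolute difference between a knockout and WT, both replicate 1, was 0.0603 pA for snR3KO, 0.0837 pA for snR34KO and 0.0808 pA for snR36KO. Between the replicates of a strain it was 2.14 pA in WT, 0.591 pA in snR3KO, 1.26 pA in snR34KO and 0.748 pA in snR36KO. Over all 5-mers those replicate differences were 2.18, 0.667, 1.35 and 0.802 pA, close to those of the segments.

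The 5-mer with the largest WT replicate difference was GGUGC at 3253, with 92.1 pA in replicate 1 and 106.0 pA in replicate 2. The 6 knockout libraries there lay between 91.7 and 95.5 pA. AGUGA at 1956 (99.6 and 110.4 pA) and UAUAG at 3169 (95.8 and 106.2 pA) came next. WT replicate 2 was thus the highest library at all 3.

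**Figure D5:**
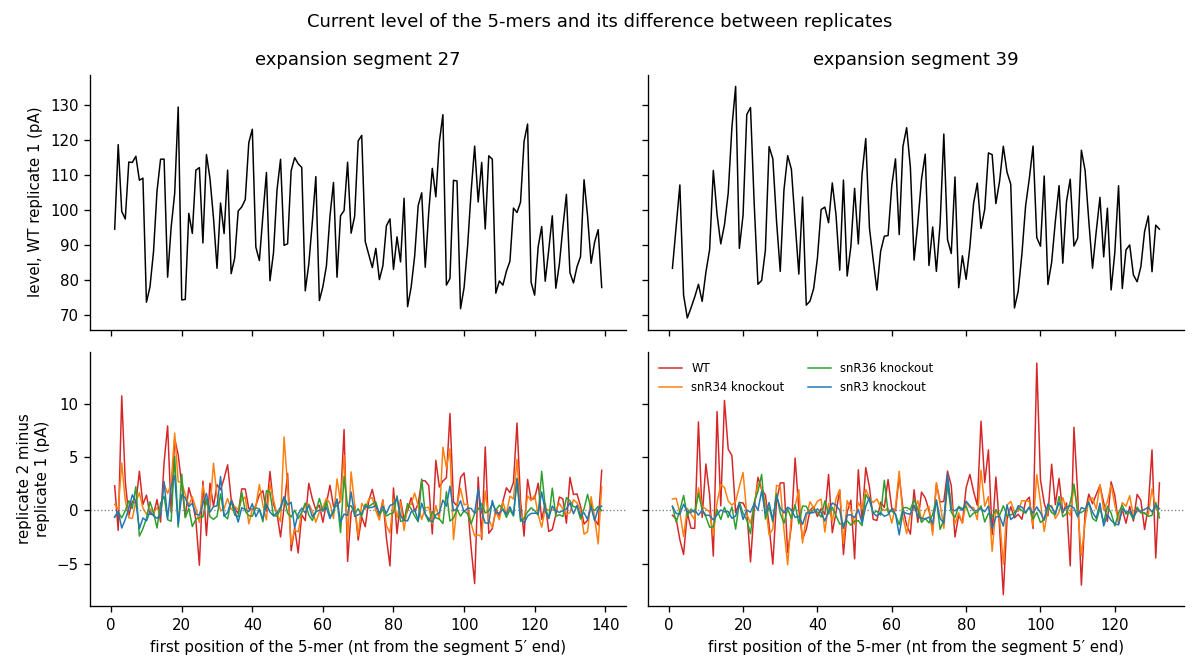
Current level of each 5-mer in WT replicate 1 (top, in pA) and replicate 2 minus replicate 1 for each strain (bottom, in pA) along segments 27 (left) and 39 (right), by the first position of the 5-mer from the segment's 5′ end. The WT difference has a mean absolute value of 2.14 pA, against 0.591 to 1.26 pA in the knockouts. Its largest absolute value is 13.9 pA, against 3.47 to 7.30 pA in the knockouts.

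In limma over all 5158 5-mers, 0 of 271 members were called for snR3KO, snR34KO or snR36KO against WT, beside 0%, 0% and 0% of all 5-mers. At an unadjusted p below 0.05 the counts were also 0 in each, and 18, 17 and 15 among all 5-mers. The lowest adjusted p in limma was 0.737 for snR3KO, at GAAAG (3242), with 101.8 and 104.9 pA in WT and 101.7 and 101.1 pA in the knockout, before 1980 and 2034. For snR34KO it was 0.930 at UAAGG (3185), where WT had 105.7 and 108.3 pA and the knockout 105.7 and 103.9 pA, before 2057 and 3228. For snR36KO it was 0.709 at CGCUU (2078), where WT had 98.3 and 96.5 pA and the knockout 98.4 and 100.5 pA, before 2034 and 3254. In each of these 3, the replicate 1 libraries differ by less than the WT replicates do. Without WT replicate 1, limma called 55, 40 and 59 members for the 3 knockouts, of 1013, 703 and 1057 called among all 5158 5-mers. WT is then replicate 2 alone, which was assumed to vary like the other groups.

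Most members had a level close to that of the same letters elsewhere. Of the members, 236 also occur elsewhere in 25S away from listed sites, and their mean over replicate 1 libraries lay within 2 pA of the mean elsewhere at 159 (67.4%). For 5-mers of the rest of 25S set against their other copies the share was 66.8%. The widest gap was at UGUAG (2068), 11.7 pA below the mean of its 2 copies outside (99.3 against 111.0 pA). The same letters at 2044, also in segment 27, had 111.9 pA. The 5-mer at 2068 starts at the position with the highest median deletion of segment 27. GAUGG at 3173 lay 9.45 pA above its copies. Pearson's r between level inside and outside was 0.981 over these 236 5-mers, as a description.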

How the data were processed

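The deposited error tables, which their names assign to EpiNano, give per rRNA position a coverage count of reads, mismatch, insertion and deletion as a fraction of those reads, and a base quality score, per the file headers. The deposited current tables, assigned by name to Nanopolish, give an event level per 5-mer, a signal in pA. No source used here names the basecaller, the aligner, their versions or read filters. Groups came from the labels.

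Fractions were multiplied by coverage to recover reads, which were whole within 0.001. Coverage was divided by the mean of 25S 2400 to 2600 in the library and tested with edgeR 4.0.16 (quasi-likelihood), and errors with a quasi-binomial model moderated with limma 3.58.1 in R 4.3.3. Current was tested with limma. Benjamini-Hochberg adjustment ran over all positions or 5-mers tested, at 0.05 and a minimum coverage of 50. All 279 members passed that minimum in every fit. DESeq2 1.42.0 was an alternative. Models were tested on simulated data. RNAfold 2.7.2 and Python 3.11.15 served the remainder. The list of modified sites was compiled from general knowledge and not checked against a database. Named positions were the highest medians per segment, the 3 lowest p in each fit, range ends and runs of at least 4 bases. Members, lists and tests were chosen with earlier results of these data known.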

Additional observations from a re-analysis of the deposited data

How the results depend on the processing

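Of the position and 5-mer tests, all 19 kept 0 called members under every alternative except those that left out 1 library. Without treated fractions 3-4 replicate 1, the counts for peroxide in fractions 3-4 were 136 for coverage (762 of all 2495 positions called), 8 for mismatch (29 of 4535) and 2 for deletion (10 of 4535). Leaving out other libraries of that comparison gave 0, so the ranges are 0 to 136, 0 to 8 and 0 to 2. For F1 to F4 the ranges were 0 to 35 for mismatch, 0 to 62 for insertion and 0 to 33 for deletion, with the higher values without F2 replicate 2 (540, 751 and 635 of all 3307 called). For current they were 0 to 55, 0 to 40 and 0 to 59, the higher values without WT replicate 1 (1013, 703 and 1057 of all 5158 5-mers called). Neighbouring positions share reads, so coverage calls come in blocks and are not separate observations. The cause was not tested.

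Same-numbered libraries share only a number in the labels. Deviations of same-numbered libraries correlated at 0.935 to 0.992 (fractions) and 0.836 to 0.997 (peroxide) for coverage, 0.189 to 0.634 for mismatch and 0.146 to 0.519 for current. With the replicate block, the number of members called was 0 in every fit.

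With a size rule of 2 points, 4 members passed for deletion in snR36KO, of 164 among all 5458 positions, against 0 at 5 points. Scaled to all of 25S, segment 27 had a median of 1.07 in place of 0.757. With listed sites included in the rest, the segment minus the rest turned for mismatch to -0.854 (segment 27) and -0.954 (segment 39) and for insertion to -0.858 (segment 39). It was 0.213 for insertion and -0.997 for deletion in segment 27, 0.545 for deletion in segment 39, and -0.323 and -0.260 for base quality. With the median over positions, deletion in segment 27 turned to 0.189, and segment 39 had 0.296 for deletion, 0.0156 for insertion and -2.10 for base quality. With the rest limited to positions at 50 reads in every library, chosen after seeing the data, segment 27 had -0.734 for deletion and -0.651 for base quality. Depth limits F1 and F4 replicate 1 most.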
